A study of Mus musculus with 32 samples.

Results

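Transcripts of 10 circadian clock genes were measured in the left ventricle of 32 mice: the activators Arntl, Clock and Npas2, the repressors Per1, Per2, Per3 and Cry1, the nuclear receptors Nr1d1 and Nr1d2, and the output factor Dbp. They were chosen with earlier results of these data known. Each was read by symbol, through the probe sets whose platform annotation names that symbol alone. All 10 were found among 18193 genes so named on the Affymetrix mouse 430 2.0 array. All 10 passed the filter on low values that left 11014 genes for testing. The mice were C57Bl6, aged 10 weeks per the labels, and the series crossed sex, genotype and surgery with 4 individual mice in each of 8 groups. Female and male mice either were wildtype or carried a knockout of estrogen receptor beta, and either had a sham operation or transverse aortic constriction (TAC), in which a band around the aorta raises the pressure the left ventricle pumps against. The labels do not name the allele. A duration of 9 weeks is stated for TAC in the 8 knockout mice, no duration is stated for TAC in the 8 wild-type mice, and the labels do not say whether the age was taken at surgery or at the end. The question named in the design was how sex and this receptor bear on cardiac hypertrophy. The labels used here give no time of day for the sampling of the hearts.

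The clock is a feedback loop of transcription that runs in most cells, cardiomyocytes included. The protein of Arntl (BMAL1) pairs with that of Clock or Npas2 and activates the Per, Cry, Nr1d and Dbp genes through E-boxes, after which PER and CRY proteins repress the pair. The Nr1d proteins (REV-ERB) repress Arntl and Npas2 through sites that ROR receptors also use, and DBP acts at D-boxes, so that activator transcripts and those of Per, Nr1d and Dbp run in roughly opposite phases over the day.

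Correlations between arrays of the same group ran from 0.914 to 0.988, and the median signal per array from 101.5 to 127.7 at a 2% trimmed mean of 500. Xist separated the sexes as labelled, with a lowest female log2 value of 12.25 and a highest male value of 7.68. The probe set of the targeted gene, Esr2, read higher in the knockout (signal 113 ± 53.8, SD, n = 16) than in wild type (18.3 ± 15.6), and it checks no label because the deleted part is not stated. The 6 ventricular cardiomyocyte markers were all far above the filter, with no single marker under a signal of 8194 in any mouse. Summed atrial markers varied from 155.8 to 35622 between mice.

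Promoters were read for the members in RefSeq's table of mouse assembly GRCm38.p6, which held 13 start sites for 9 of the 10 genes. The motifs searched on both strands, from 250 bases before to 50 bases after each start, were the E-box CACGTG, the variant E-box CACGTT, the D-box TTATGTAA, the core of the ROR element, AGGTCA, and the CRE TGACGTCA. A match was found for 7 genes, and none of the matches overlapped another. No match was found for Npas2 or Dbp, and no promoter of Per2 was held, though all of these moved with Arntl in the values that follow. The 6 sequences below are shown because they carry motifs of the loop in genes that did, and did not, move with Arntl. The relation of motifs to those values was not tested. Each promoter is the 250 bases before the start, 5′ to 3′ on the gene's strand, with the motifs in capitals; a capital AACGTG is CACGTT, and TGACCT is AGGTCA, on the other strand. Their positions are chr4:151044666-151044915 on the minus strand for Per3, chr10:85185055-85185304 (minus) for Cry1, chr11:69098699-69098948 (plus) for start 1 of Per1, chr11:98775378-98775627 (minus) for Nr1d1 and chr14:18239107-18239356 (minus) for Nr1d2. The short Arntl site is chr7:113207533-113207556 (plus), downstream of start 2.
Per3: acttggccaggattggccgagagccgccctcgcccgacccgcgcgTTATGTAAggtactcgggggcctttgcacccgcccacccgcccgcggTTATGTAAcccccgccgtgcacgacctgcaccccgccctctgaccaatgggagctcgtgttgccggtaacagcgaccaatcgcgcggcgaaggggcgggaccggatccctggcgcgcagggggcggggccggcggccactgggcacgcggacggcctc
Cry1: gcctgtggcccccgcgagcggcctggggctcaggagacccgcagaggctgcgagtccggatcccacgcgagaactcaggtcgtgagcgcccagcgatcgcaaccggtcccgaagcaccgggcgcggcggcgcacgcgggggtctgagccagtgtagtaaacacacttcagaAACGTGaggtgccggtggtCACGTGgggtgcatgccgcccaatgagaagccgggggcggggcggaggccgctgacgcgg
Per1: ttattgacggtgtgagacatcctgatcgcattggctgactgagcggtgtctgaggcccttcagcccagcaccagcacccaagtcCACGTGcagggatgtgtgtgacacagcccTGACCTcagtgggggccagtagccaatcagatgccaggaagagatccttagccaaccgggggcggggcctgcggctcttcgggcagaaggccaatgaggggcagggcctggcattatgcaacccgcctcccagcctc
Nr1d1: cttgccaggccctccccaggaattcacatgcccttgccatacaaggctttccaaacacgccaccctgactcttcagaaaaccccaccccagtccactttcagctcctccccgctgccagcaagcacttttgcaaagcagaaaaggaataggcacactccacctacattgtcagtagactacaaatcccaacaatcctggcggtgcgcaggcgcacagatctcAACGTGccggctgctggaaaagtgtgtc
Nr1d2: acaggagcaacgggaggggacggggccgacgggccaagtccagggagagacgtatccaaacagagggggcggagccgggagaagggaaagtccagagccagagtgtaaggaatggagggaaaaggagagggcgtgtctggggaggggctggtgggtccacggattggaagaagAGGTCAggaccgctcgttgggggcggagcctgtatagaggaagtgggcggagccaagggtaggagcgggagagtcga
Arntl site: gcagaaagtAGGTCAgggacggag
Per3 held 2 copies of the D-box, 205 and 158 bases before its start, a motif present in 0.938% of the 32851 promoters of this length in the table. Cry1 held an E-box 60 bases before its start, found in 7.15% of all promoters, and a variant E-box 79 bases before it, found in 4.68%. An E-box stood 166 bases and an AGGTCA 137 bases before start 1 of Per1. Nr1d1 had a variant E-box at 28 bases, and Nr1d2 an AGGTCA at 77 bases. The letters AGGTCA are common, with 16.3% of promoters holding them, and Arntl had them 32 bases after its start 2. Clock held them 119 bases before its start 3, and the CRE, present in 1.79% of all promoters, matched in no member. A match is a string of letters in a window and describes no binding.

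The first result was how far single mice of the same group lay apart. Levels are given as log2(signal + 32), so that a difference of 1 is close to a doubling of the signal for well-expressed genes. Dbp, a transcription factor of the PAR bZIP family, had the widest spread, with signals from 690.0 to 8008 over the 32 mice, an 11.6-fold range. Signals of Per2, a core repressor, ran from 71.4 to 831.5, also 11.6-fold. Those of Arntl ran from 118.0 to 933.1, a 7.91-fold range, and those of Clock only from 627.7 to 1558, 2.48-fold. Ranges of the other 6 were 9.22-fold for Npas2, 7.88-fold for Per3, 5.77-fold for Per1, 5.74-fold for Nr1d2, 4.04-fold for Nr1d1 and 3.36-fold for Cry1.

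**Figure D1:**
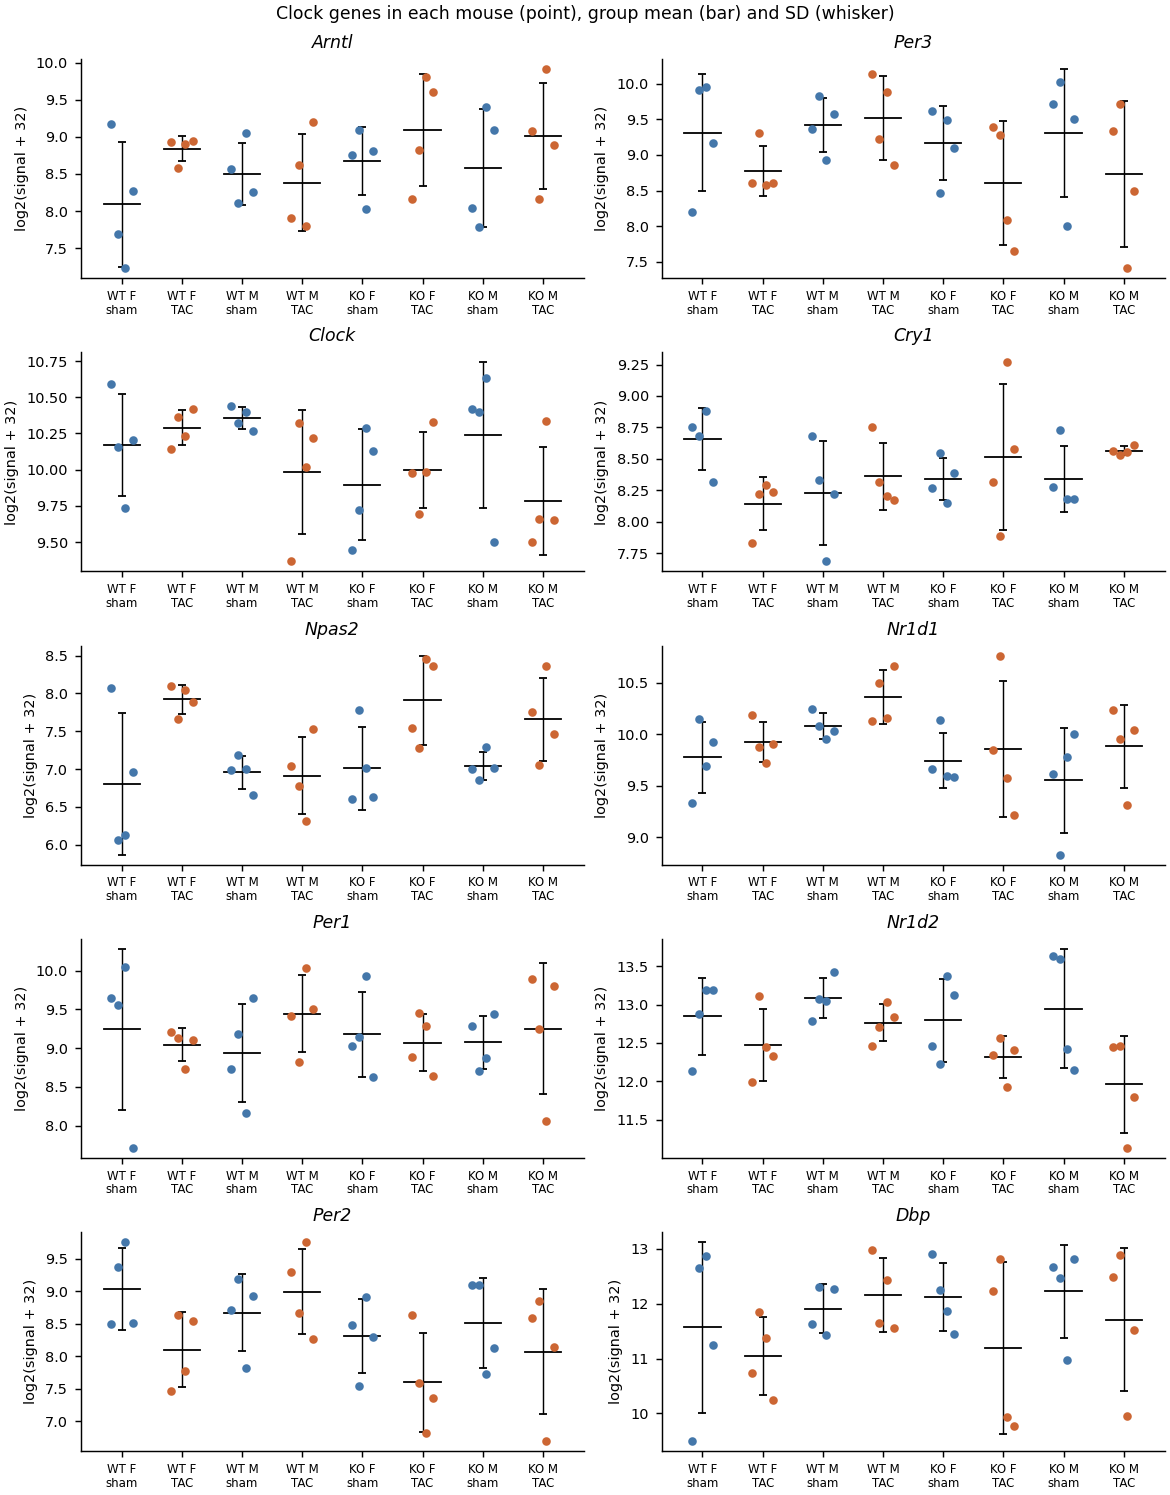
Level of each clock gene, log2(signal + 32), in every mouse by group (WT wild type, KO knockout, F female, M male; blue sham, orange TAC), with the group mean as a bar and the SD (n = 4) as a whisker. Arntl and Dbp span most of their range inside single groups such as the wild-type female sham mice, while the 3 groups highest in Npas2 are TAC groups with means of 7.66 to 7.93.

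Most of this spread lay within groups. The pooled within-group SD was 1.05 for Dbp, larger than that of 99.9% of the 11014 genes tested, whose median was 0.25. Per3 (0.72), Per2 (0.69), Arntl (0.64) and Per1 (0.62) lay above 98.7% or more of genes, Npas2 (0.53) and Nr1d2 (0.50) above 97.1% and 96.2%. Nr1d1 (0.38), Clock (0.34) and Cry1 (0.31) were less extreme, above 87.4%, 80.5% and 73.3%. Group membership accounted for 7.07% of the variance of Per1 and at most 48.3%, for Npas2, against a median of 38.7% over all genes tested.

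Wild-type female sham mice show the pattern. Their Arntl levels were 9.18, 7.69, 7.23 and 8.27 in mice 1 to 4. Npas2, the paralogue of Clock, followed with 8.07, 6.06, 6.13 and 6.96. Mouse 1 was thus the highest of the 4 for both genes. Dbp ran the other way, at 9.50, 12.66, 12.87 and 11.25, as did Per3, at 8.20, 9.91, 9.95 and 9.17. Mouse 1, highest for the activators, was the lowest of its group for Dbp and Per3.

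Knockout male TAC mice gave the same order with another mouse at the end. Arntl stood at 9.08, 8.17, 9.91 and 8.89, and Npas2 at 7.75, 7.05, 8.36 and 7.47. Dbp was 12.48, 12.88, 9.95 and 11.52, and Per3 9.33, 9.72, 7.41 and 8.49. Here mouse 3 was highest for the activators and lowest for the other pair, and mouse 2 the reverse. Over the 8 groups, the mouse with the highest Arntl had the lowest Per2 in 7, the lowest Per3 in 6 and the lowest Dbp in 6. The mouse with the lowest Arntl had the highest Per2 in 7 of the 8 groups, the highest Per3 in 6 and the highest Dbp in 4. The same counts were 4 and 5 for Nr1d2, 2 and 3 for Per1, 3 and 2 for Cry1, and 3 and 0 for Nr1d1. The highest mouse was shared with Arntl in 6 groups for Npas2 and 4 for Clock, the lowest in 4 and 1. With 4 mice per group some matches occur by chance, and their number was not calculated.

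To measure this over all mice, each level was taken minus its group mean and Arntl was correlated with the other 9 members over the 32 mice (two-sided permutation test with 100000 permutations within groups, Benjamini-Hochberg over 9 pairs). Of the 9 pairs, 5 passed an adjusted p of 0.05. The share of all genes tested that would pass with Arntl was not counted, so this count has no background. The members were chosen with earlier results of these data known, so the p-values are no independent test. Per2 had Pearson's r = -0.891 and Spearman's rho = -0.911 (permutation p 1e-05 for both, the smallest they can give; adjusted p = 4.5e-05). Per3, with the D-boxes shown above, had r = -0.884 and rho = -0.872 (permutation p 1e-05 for both, adjusted p = 4.5e-05). Dbp had r = -0.768 (permutation p = 0.00011, adjusted p = 0.000247) and rho = -0.775 (permutation p = 7e-05). Npas2 was positive at r = 0.754 (permutation p = 7e-05, adjusted p = 0.00021) and rho = 0.695 (permutation p = 0.00048). Nr1d2, one of the REV-ERB repressors of Arntl, had r = -0.673 (permutation p = 0.00057, adjusted p = 0.00103) and rho = -0.654 (permutation p = 0.00104). Leaving out the 2 mice with the most extreme Arntl deviations, wild-type female sham mouse 1 (deviation 1.09) and knockout female TAC mouse 1 (deviation -0.94), gave r of -0.893 for Per2, -0.864 for Per3, -0.716 for Dbp, 0.708 for Npas2 and -0.667 for Nr1d2.

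Within each surgery and each genotype (16 mice each) the signs were the same for these 5 genes. For Per2, r was -0.916 in sham and -0.880 in TAC mice, and -0.841 in wild type and -0.924 in knockout mice. For Per3 the 4 values lay between -0.848 (knockout) and -0.962 (wild type), and for Npas2 between 0.657 (sham) and 0.872 (TAC). Those of Dbp ran from -0.684 in the knockout to -0.891 in wild type, and those of Nr1d2 from -0.499 in wild type to -0.803 in sham mice. No difference between these strata was tested.

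**Figure D2:**
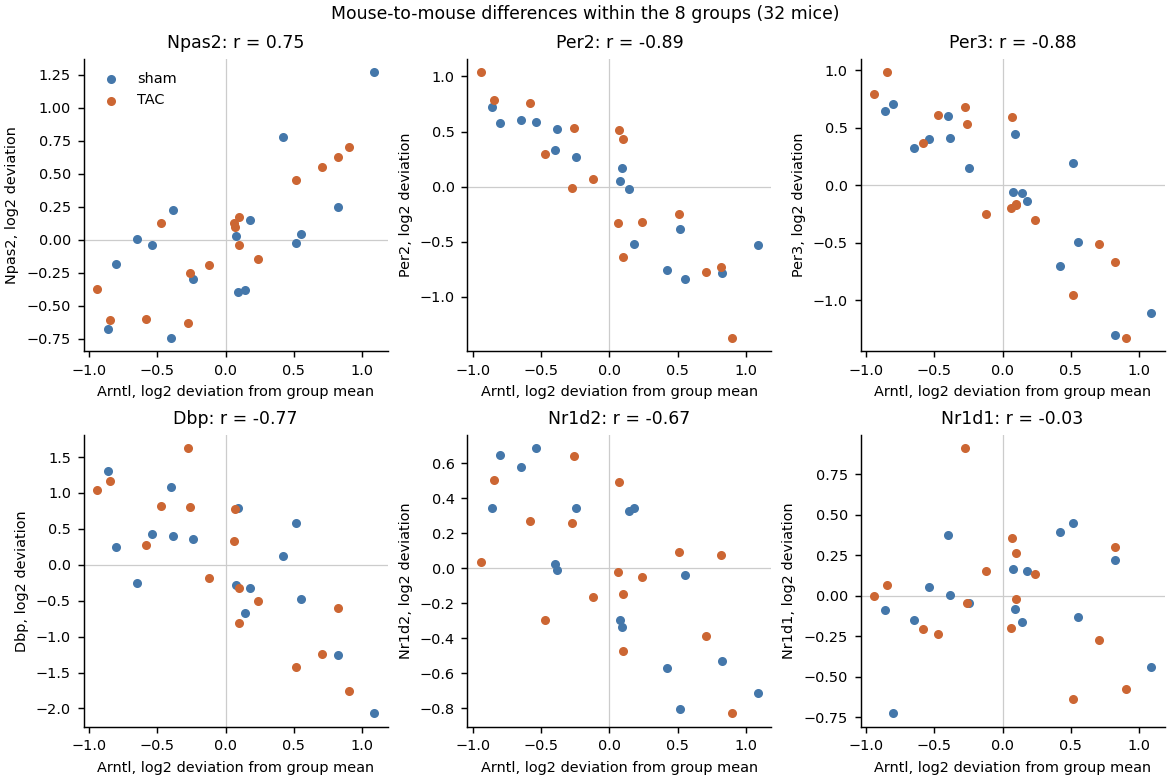
Deviation of 6 clock genes from their group mean (vertical axis, log2) against that of Arntl (horizontal axis, log2) in 32 mice, blue sham and orange TAC, with Pearson's r above each panel. Npas2 rises with Arntl, Per2, Per3, Dbp and Nr1d2 fall, while Nr1d1 has an r of -0.03.

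The other 4 members did not pass. Clock, which encodes a partner of BMAL1, had r = 0.322 (permutation p = 0.161, adjusted p = 0.207) and Per1 had r = -0.351 (permutation p = 0.123, adjusted p = 0.184). Cry1, whose promoter holds both kinds of E-box, had r = -0.021 (permutation p = 0.926), and Nr1d1 had r = -0.032 (permutation p = 0.897, both adjusted p = 0.926). Spearman's rho was 0.355, -0.378, -0.067 and 0.033 in the same order (permutation p = 0.0971, 0.0684, 0.748 and 0.883). Without the 2 extreme mice Per1 reached r = -0.472 (adjusted permutation p = 0.0276), so that its place beside the threshold rests on those mice; the other 3 read 0.269, -0.093 and 0.058.

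The choice of probe set decided 2 of these pairs. When all probe sets of each gene were averaged, those of Arntl included, Clock gave r = 0.678 with Arntl (adjusted permutation p = 0.00441). Nr1d2 gave only -0.312 (adjusted permutation p = 0.183). Whether the probe sets of Arntl or those of the other gene moved these values was not tested. Clock is read by 4 probe sets, whose correlations with the one used ran from 0.155 to 0.801 over the 32 mice. Nr1d2 is read by 2, with a correlation of 0.465. The probe sets of Dbp followed each other most closely (0.979), while the second of Arntl, near the filter at a mean signal of 113.2, reached 0.347 with the first.

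Among all 45 pairs of members, a family added after the data were seen, 18 passed an adjusted permutation p of 0.05 by Pearson's r, 8 positive and 10 negative. No share was counted over pairs of other genes, so this count has no background either. Of these, Per1 with Per2 (rho = 0.432, adjusted permutation p = 0.0764) and Nr1d2 with Dbp (rho = 0.411, 0.0907) did not pass by Spearman's rho. The most strongly positive pair was Per3 with Dbp (r = 0.894), followed by Per2 with Per3 (0.849). Clock, which did not pass with Arntl, was negative with Dbp (r = -0.708, adjusted permutation p = 9e-05) and Per3 (-0.566, adjusted permutation p = 0.0231). Per1 passed only with Per2 (r = 0.493, adjusted permutation p = 0.0392), and without the 2 extreme mice that r was 0.355. Cry1 and Nr1d1 passed with no member, although Nr1d1 with Dbp had r = 0.469 (permutation p = 0.048, adjusted p = 0.114). The first principal component of the deviations held 68.4% of their variance, with Dbp (-0.615), Per3 (-0.435), Per2 (-0.372) and Arntl (0.361) carrying the largest loadings and Cry1 one of 0.015.

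**Figure D3:**
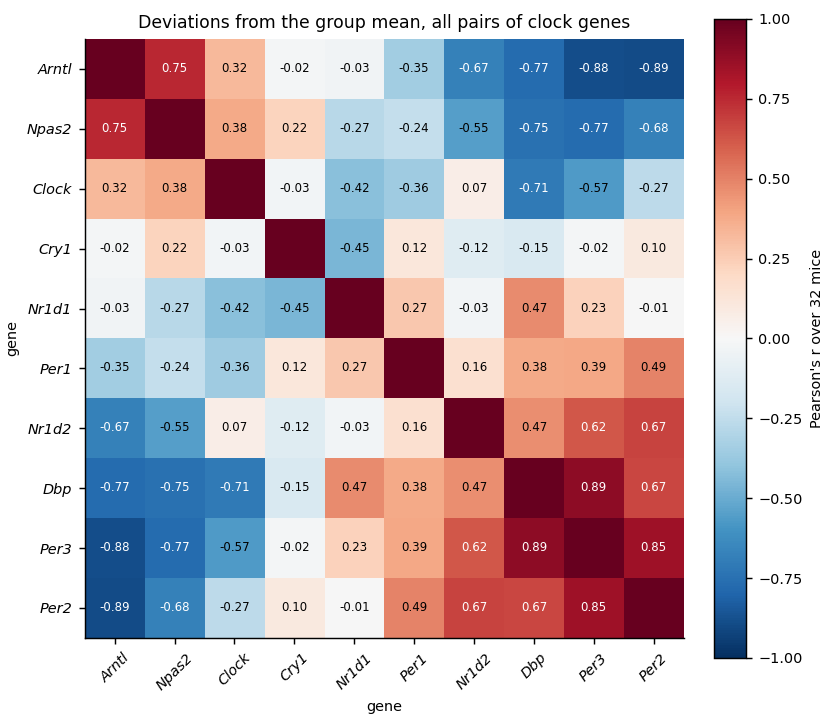
Pearson's r between the deviations from the group mean of each pair of clock genes over 32 mice (colour and number). Arntl and Npas2 form a block opposite to Nr1d2, Dbp, Per3 and Per2, whereas Cry1 and Nr1d1 stay near 0 with Arntl (-0.02 and -0.03).

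An index of clock phase was formed in each mouse as the mean of Arntl, Clock and Npas2 minus the mean of Per1, Per2, Per3, Nr1d1, Nr1d2 and Dbp, and is given relative to the mean of all mice, as a description with no test. A high value means activator transcripts high and those of their targets low. It ran from -1.73 in wild-type female sham mouse 3 to 2.27 in knockout male TAC mouse 3, a span of 4.00. The 8 group means, which vary less than single mice because each averages 4, spanned 1.34. The pooled within-group SD was 0.91, and 26.3% of the variance lay between groups. Any 8 groups of 4 mice hold some variance between them, and that level was not calculated.

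Single groups covered much of the whole range. Wild-type female sham mice had values of 1.22, -1.29, -1.73 and 0.00. Knockout male TAC mice had -0.23, -0.74, 2.27 and 0.19, and knockout female TAC mice -0.18, -0.32, 1.63 and 1.75. In the last group the mice fell into a low and a high pair. Wild-type female TAC mice were the most alike, at 0.85, 0.04, 0.78 and 0.78, followed by the knockout female sham mice, which spanned 0.99. Wild-type males spanned 1.18 after sham surgery and 1.55 after TAC, and knockout male sham mice 1.66.

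Group means of the index, in rising order, were -0.63 (SD 0.74) in wild-type male TAC, -0.45 (1.33) in wild-type female sham, -0.26 (0.53) in wild-type male sham, -0.21 (0.49) in knockout female sham and -0.16 (0.77) in knockout male sham mice, then 0.37 (1.32) in knockout male, 0.61 (0.38) in wild-type female and 0.72 (1.12) in knockout female TAC mice. These SDs are of single mice, and no difference between the group means was tested. TAC minus sham was 1.06 in wild-type females, 0.92 in knockout females, 0.54 in knockout males and -0.37 in wild-type males, and the groups overlapped in each case. The time of sampling behind these values was not tested, since the labels used here hold none.

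**Figure D4:**
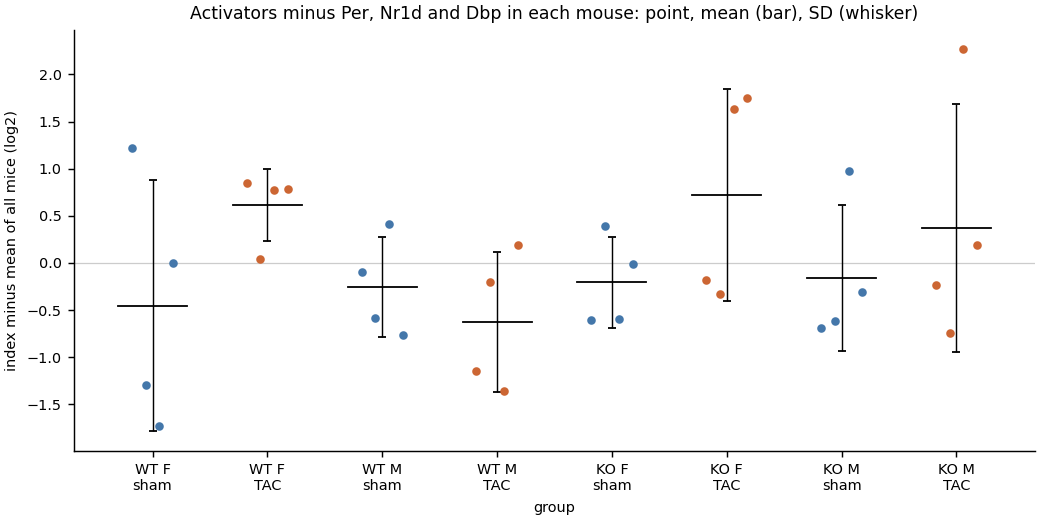
Phase index, activators minus Per, Nr1d and Dbp on the log2 scale relative to the mean of all mice, in each mouse by group, with group mean (bar) and SD (whisker, n = 4). Mice of one group lie up to 3.00 apart. The group means, which vary less than single mice because each averages 4, span 1.34.

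Of the genes outside the 10, those with the closest correlation to the index over the 32 mice are given as a description, with no test. Gene and index were both taken as deviations from their group means, so differences between groups, those after TAC included, do not enter. Each array's values share its scaling. On the negative side the closest genes were Tef (r = -0.935), Usp2 (-0.906), Hlf (-0.897), Ciart (-0.886) and Pik3ip1 (-0.852). Tef and Hlf encode the 2 relatives of DBP in the PAR bZIP family, and Ciart a repressor of the CLOCK:BMAL1 pair. On the positive side stood Nfil3 (0.802), which encodes a repressor at D-boxes, then Spon2 (0.783), Slc38a2 (0.780), Col5a3 (0.780) and Adam19 (0.764). Cry2, the paralogue of Cry1, had r = -0.560. Casein kinase genes, whose products phosphorylate PER, had 0.202 (Csnk1d) and -0.337 (Csnk1e). Of 11 clock-controlled output genes, Coq10b (-0.682), Klf15 (-0.629) and Tcap (-0.564) came after Usp2, while Nampt (-0.169), Pik3r1 (-0.183), Kcnip2 (-0.187) and Alas1 (0.021) had the weakest correlations.

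Cell composition and RNA quality were set beside the same deviations. Fewer cells of a type and less RNA per cell cannot be told apart in such bulk tissue. Among 13 measures (10 marker lists, the 3-prime to 5-prime signal of Gapdh and of beta-actin, and the array median), none passed with Arntl's deviations. The lowest adjusted permutation p of Pearson's r was 0.400. By r the smallest unadjusted p was that of the 3 smooth muscle markers (r = -0.445, permutation p = 0.0388; rho = -0.369, permutation p = 0.0816; r = -0.323 without the 2 extreme mice). By rho it was that of the 4 endothelial markers (rho = 0.424, permutation p = 0.031; r = 0.376, permutation p = 0.102; r = 0.479 without those mice). Macrophage markers had r = 0.332 and ventricular cardiomyocyte markers -0.171. The array median had r = 0.179.

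For TAC against sham, the fit was limma's, on 8 group means over all 32 arrays, with Benjamini-Hochberg adjustment over the 11014 genes. Averaged over the 4 strata of sex and genotype, 2 of the 10 clock genes passed (Npas2 higher, Nr1d2 lower), while 41.2% of all genes tested passed in this contrast (23.5% higher, 17.8% lower). Whether the share of clock genes differs from this background was not tested. All 10 had a within-group SD above the median of the genes tested, which makes a given change harder to call. The median change of the 10 was -0.07 on the log2 scale, beside 0.02 over all genes tested. The mice of both surgeries overlapped for all 10, with no share of all genes counted for overlap. The 3-prime minus 5-prime signals, read as signs of RNA quality, differed with surgery too. On average they were lower after TAC for beta-actin and higher for Gapdh, so they give no single reading of RNA quality. Beta-actin 3-prime minus 5-prime signal was 0.65 on the log2 scale in sham (range 0.45 to 1.10) and 0.28 in TAC mice (0.05 to 0.48), nearly without overlap, and the same measure of Gapdh was -0.31 in sham (-0.37 to -0.23) and -0.24 in TAC mice (-0.32 to -0.18). With beta-actin as a covariate, an alternative added after the data were seen, neither Npas2 (0.23, limma adjusted p = 0.760) nor Nr1d2 (-0.10, 0.902) passed in the mean, and 7.88% of all genes tested did. Since beta-actin nearly separates the surgeries, its effect and that of TAC can hardly be told apart in that fit.

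Npas2, which can replace Clock as the partner of BMAL1, rose in the mean of the strata as reported. Wild-type female sham mice had 8.07, 6.06, 6.13 and 6.96, and TAC mice 8.10, 7.67, 8.05 and 7.89. Knockout female sham mice had 6.61, 7.79, 7.01 and 6.63, and TAC mice 7.54, 7.28, 8.46 and 8.36. In both, 1 sham mouse lay among the TAC mice and the other 3 below them. Knockout males had 7.00, 6.86, 7.29 and 7.02 after sham surgery against 7.75, 7.05, 8.36 and 7.47 after TAC, and wild-type males 6.99, 7.18, 7.00 and 6.66 against 7.04, 6.77, 6.31 and 7.54. In wild-type males the sham mice lay within the range of the TAC mice.

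The change of Npas2 was 0.65 ± 0.17 (log2 change ± SE, a 1.57-fold difference; limma, adjusted p = 0.00351). In the strata it was 1.12 ± 0.35 in wild-type females (limma, adjusted p = 0.0737), 0.90 ± 0.35 in knockout females (0.125), 0.62 ± 0.35 in knockout males (0.169) and -0.04 ± 0.35 in wild-type males (0.966). None of these passed. Without wild-type female sham mouse 1, the wild-type female change was 1.54 and passed (limma, adjusted p = 0.00806), and without knockout female sham mouse 2 the knockout female change was 1.16 (0.0419). Wild-type female sham mouse 1 is also the sham mouse with the highest phase index, but Npas2 is itself a part of that index. The level of Npas2 is close to the filter of 7.11. Means of every sham group (6.81 to 7.04) and of wild-type male TAC mice (6.91) lay below it. Npas2 thus passed the filter only through the other TAC groups, with means of 7.66 to 7.93. Its call is therefore not independent of the filter, though with no filter it also passed (limma, adjusted p = 0.00594). The estimate moved from 0.82 with a pseudocount of 1 to 0.41 with the largest pseudocount tried, on the same side of the threshold. The second Npas2 probe set lay below the filter and was not tested, and the average of both fell below it as well, so that no call for Npas2 exists there.

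Nr1d2, which encodes REV-ERB beta, fell in the mean of the strata as reported. Knockout male sham mice had 13.63, 13.60, 12.42 and 12.14, and TAC mice 12.45, 12.46, 11.13 and 11.80. Knockout females had 12.46, 12.22, 13.37 and 13.12 after sham surgery, and 12.35, 12.57, 11.93 and 12.41 after TAC. In either sex the 2 highest mice were sham mice, and the other sham pair lay within the range of the TAC mice. Wild-type females had 12.13, 12.87, 13.19 and 13.19 against 11.99, 13.11, 12.44 and 12.32, and wild-type males 12.79, 13.07, 13.05 and 13.43 against 12.47, 12.71, 13.04 and 12.84.

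The change of Nr1d2 was -0.54 ± 0.16 (a 1.46-fold difference; limma, adjusted p = 0.00727), and a second probe set gave -1.54 ± 0.31 (limma, adjusted p = 0.000238 over all probe sets). Only in knockout males did a clock gene pass within a stratum: Nr1d2, at -0.99 ± 0.32 (limma, adjusted p = 0.0188), or 1 of 10 beside 32.6% of all genes tested there (12.9% lower). It did not pass in knockout females (-0.48 ± 0.32, adjusted p = 0.423), wild-type females (-0.38 ± 0.32, 0.628) or wild-type males (-0.32 ± 0.32, 0.645), and the genotype difference in the response was not past the threshold for any clock gene. With the Gapdh measure as a covariate Nr1d2 lost the call in the mean (-0.38, limma adjusted p = 0.250) and in knockout males (-0.83, 0.0950), as it did in knockout males with beta-actin (-0.55, 0.429). The knockout male call was also lost with only these 2 groups in the fit (adjusted p = 0.101), and without knockout male sham mouse 1 (-0.76), sham mouse 2 (-0.77), TAC mouse 3 (-0.71) or TAC mouse 4 (-0.93).

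**Figure D5:**
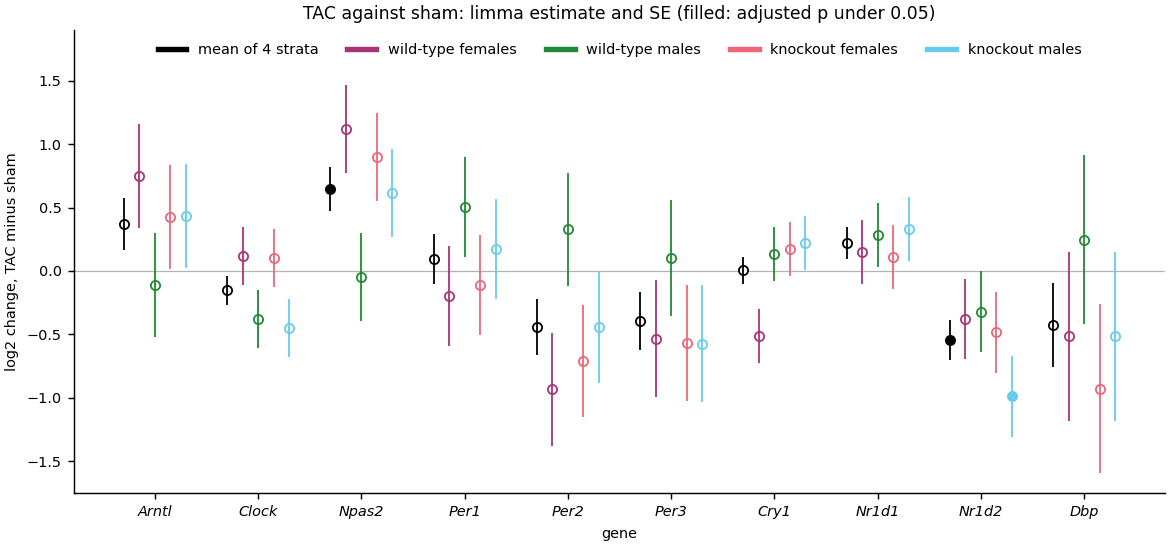
Change of each clock gene after TAC (log2, TAC minus sham) with its SE from the limma fit, as the mean of the 4 strata (black) and in each stratum (colours); filled points passed an adjusted p of 0.05. Npas2 and Nr1d2 are filled in the mean (0.65 and -0.54) and Nr1d2 in knockout males (-0.99), all other points are open.

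The other 8 members did not pass after TAC. Arntl had a median of 8.42 in sham mice (7.23 to 9.40) and 8.90 in TAC mice (7.80 to 9.91), and its change was 0.37 ± 0.21 (limma, adjusted p = 0.143). Per2 had a median of 8.61 in sham mice (7.54 to 9.75) and 8.40 in TAC mice (6.69 to 9.75), with a change of -0.44 ± 0.22 (0.110). Per3 changed by -0.39 ± 0.23 (0.172), Dbp by -0.43 ± 0.33 (0.310), Nr1d1 by 0.22 ± 0.13 (0.166), Clock by -0.15 ± 0.11 (0.292), Per1 by 0.09 ± 0.20 (0.730) and Cry1 by 0.00 ± 0.11 (0.979), none past the threshold. Averaging the 6 probe sets of Per3 gave -0.37, just past it (limma, adjusted p = 0.0493). The SE of Dbp was the widest of the 10.

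Within the strata, no clock gene passed in wild-type females (3.28% of all genes tested did), wild-type males (5.56%) or knockout females (5.58%). At an unadjusted p under 0.05 limma counted 3, 0 and 1 of the 10. The share of all genes at that unadjusted level was not counted, here or below, so these counts have no background. The 3 in wild-type females were Npas2, Per2 (-0.93 ± 0.44, adjusted p = 0.289) and Cry1. Cry1, a repressor that binds the CLOCK:BMAL1 pair, had 8.75, 8.68, 8.88 and 8.31 in wild-type female sham mice and 7.83, 8.22, 8.29 and 8.23 in TAC mice. The change of -0.51 ± 0.21 missed the threshold (limma, adjusted p = 0.209). In the other 3 strata Cry1 had estimates of 0.13 to 0.22. Clock in knockout males changed by -0.45 ± 0.23 (limma, adjusted p = 0.124) and passed without knockout male sham mouse 4 (-0.70, 0.0103) or TAC mouse 3 (-0.63, 0.0421).

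Knockout against wild type, averaged over sex and surgery, passed for none of the 10 genes, with 16.7% of all genes tested past the threshold. At an unadjusted p under 0.05 (limma) there were 2 clock genes, with no share of all genes counted. Per2 was the nearest: wild-type mice had a median of 8.65 (7.46 to 9.75) and knockout mice 8.21 (6.69 to 9.09), a change of -0.58 ± 0.22 (limma, adjusted p = 0.0681). Its second probe set above the filter gave -0.27 ± 0.18 (0.292). Leaving out 1 of 5 mice (wild-type male sham 3, knockout female sham 3, knockout female TAC 1, knockout male sham 2 or knockout male TAC 2) took Per2 past the threshold, with changes of -0.63 to -0.66, as did the beta-actin covariate (-0.76, limma adjusted p = 0.0403). Nr1d1, which encodes REV-ERB alpha, was next at -0.28 ± 0.13 (limma, adjusted p = 0.124), and it passed without knockout female TAC mouse 2 (-0.35, 0.0357). Nr1d2 changed by -0.29 ± 0.16 on its main probe set (limma, adjusted p = 0.209 over all probe sets) and by -1.48 ± 0.31 on its second (0.00316), so that the call depends on which probe set reads the gene.

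In the 4 single comparisons of genotype no clock gene passed, beside 0% of all genes tested in sham females, 0.0908% in sham males, 0.00908% in TAC females and 0% in TAC males. Unadjusted p under 0.05 from limma held for 0, 1, 0 and 3 of the 10, counts for which those percentages are no background. The 3 in TAC males were Nr1d2, Npas2 (0.74 ± 0.35, adjusted p = 0.226) and Per2 (-0.92 ± 0.44, 0.237). Nr1d2 was 12.47, 12.71, 13.04 and 12.84 in wild-type and 12.45, 12.46, 11.13 and 11.80 in knockout TAC males, a change of -0.80 ± 0.32 (limma, adjusted p = 0.163).

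Sex made no called difference in any clock gene: 0 of 10 passed in the mean over genotype and surgery (0.154% of all genes tested), in wild-type sham (0.0454%) and in knockout sham mice (0.0272%), with 0 of 10 at an unadjusted p under 0.05 in each (limma). The response to TAC passed for no clock gene and for 0% of all genes tested when compared between genotypes, between sexes, or between sexes within either genotype, the last 2 added after the data were seen. Unadjusted p under 0.05 from limma held for 0, 2, 2 (wild type) and 0 (knockout) of the 10, with no share of all genes counted at that level. The 2 in the comparison between sexes were Clock (0.52 ± 0.23, female minus male response, adjusted p = 0.900) and Npas2 (0.72 ± 0.35, 0.900). Within wild type they were Npas2 (1.16 ± 0.49) and Cry1 (-0.65 ± 0.30), both at an adjusted p of 1.00.

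A list of other clock genes was read in the same fit. Of 12 tested of 17 listed, 3 rose and 1 fell in the mean of the strata, beside 41.2% of all genes tested (23.5% higher, 17.8% lower). Their median change was 0.05. Timeless rose by 0.46 ± 0.08 (limma, adjusted p = 3.84e-05), and Bhlhe40, which encodes the repressor DEC1, by 0.47 ± 0.10 (0.000259). Hlf, the relative of Dbp, fell by 0.65 ± 0.14 (0.000506). Of 11 clock-controlled output genes tested of 12 listed, 6 fell and none rose, beside 17.8% lower and 23.5% higher among all genes tested, with a median change of -0.31 beside 0.02. Nampt, the rate-limiting enzyme of NAD salvage, fell by 0.72 ± 0.10 (limma, adjusted p = 8.54e-07), Pik3r1, a regulatory subunit of PI3 kinase, by 0.67 ± 0.10 (7.7e-06), and Kcnip2, a subunit of the transient outward potassium channel, by 0.70 ± 0.11 (8.92e-06). Their correlations with the phase index, given above, lay between -0.169 and -0.187. Those values are of deviations from the group mean, so the falls after TAC do not enter them. For knockout against wild type, 2 of the 11 output genes passed, beside 16.7% of all genes tested. They were Nampt and Pik3r1, with changes of -0.28 ± 0.10 and -0.30 ± 0.10 (limma, adjusted p = 0.0465 and 0.0461).

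Markers of other cells moved with surgery, in a contrast where 23.5% of all genes tested were higher and 17.8% lower. All 4 macrophage markers rose after TAC, and their summed signal was 5354.5 to 11029 in sham and 7987 to 19965 in TAC mice. Of 5 fibroblast markers 2 rose (summed signal 16325 to 35937 in sham, 21319 to 56132 in TAC mice), and of 6 ventricular cardiomyocyte markers 2 fell (215608 to 308538 and 192803 to 449803). Of 3 smooth muscle markers 1 rose and 2 fell (4378 to 9214 and 3256 to 11922), of 4 endothelial markers 1 fell (5922 to 9827 and 5692 to 9592), and none of 3 atrial markers passed. The 4 lymphocyte, 4 skeletal muscle and 2 of 4 listed adipocyte markers that were named on the array were below the filter, and 1 erythroid marker was tested and did not pass. The part of these shifts in the changes of Npas2 and Nr1d2 was not tested.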

How the data were processed

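Left ventricular RNA (TRIzol) was primed with oligo(dT), labelled with biotin and put on 1 array per mouse, per the labels' protocols. The deposited table holds a linear signal intensity for each probe set, from MAS5 5.0, per the submitters' processing notes. Scan dates, batches, builds and further steps were not given in the sources used here. Since all arrays shared a 2% trimmed mean of 500, the values were used as deposited, as log2(signal + 32). Fold changes on this scale understate those of low genes. Array intensities give no read depth, and 4 mice in a group limit the precision.

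Of 45101 probe sets, 64 were array controls and stayed out of the tests, 34945 had 1 symbol, 932 several and 9160 none named here. The probe set with the highest mean represented a gene. Genes at or above the median of non-control probe sets (7.11, a signal of 106.1) were tested in R 4.3.3 with limma 3.58.1 (lmFit on 8 group means, eBayes with trend, two-sided, Benjamini-Hochberg, threshold 0.05). Permutation tests and figures used Python 3.11.15 with numpy 2.4.6, scipy 1.17.1 and matplotlib 3.10.9. The code was tested on simulated data. The 10 members and the gene lists were chosen with earlier results of these data known. All members are named, with up to 3 genes of each list, those with the lowest adjusted p, and the 5 genes closest to the index on either side. Other names given for their correlation with the index were chosen after their values were seen. Alternatives were the normalization, pseudocount, filter, choice of probe set, array weights, Gapdh or (added after the data were seen) beta-actin 3-prime minus 5-prime signal as a covariate, a replicate block, a fold minimum, eBayes without a trend, fits of only the groups compared and leaving out each mouse.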

Additional observations from a re-analysis of the deposited data

Results flagged for a closer look

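In 5 of 88 sets of 4 mice (10 genes and the phase index in 8 groups) 1 mouse stood far from the other 3, by a gap that took up most of the range; chance alone flags about 1 in 20 such sets. Wild-type female TAC mouse 2 had the lowest Arntl, at 8.58 beside 8.90, 8.94 and 8.94. The same mouse had the highest Per3, at 9.31 beside 8.58, 8.61 and 8.61. Its phase index was the lowest of its group, at 0.04 beside 0.78, 0.78 and 0.85. Wild-type female TAC mouse 1 had the lowest Cry1, at 7.83 beside 8.22, 8.23 and 8.29. Knockout female sham mouse 2 had the highest Nr1d1, at 10.14 beside 9.58, 9.59 and 9.66.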

How the results depend on the processing

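No result changed direction while past the threshold. Of 522 alternative counts of clock genes called, 493 stayed within 1.5 times the count reported, and all 40 alternative values of the phase index moved by less than 1 SD. Gene-by-gene array weights, from 0.187 to 4.72, moved most: 7 called for TAC in the mean of the strata (60.9% of all genes tested then, where 2 clock genes are reported), 1 in wild-type females (7.28% of all genes), 2 in knockout females (33.6%), 3 in knockout males (57.6%), 1 each for genotype in the mean (27.4%), in sham males (28.1%) and in TAC males (28.3%), and 2 for the genotype difference in the response (39.8%). The stricter filter left 1 in the mean for TAC, because Npas2 fell below it, and the Gapdh covariate left 1, with 0 in knockout males. The beta-actin covariate, added after the data were seen, left 0 in the mean for TAC and 0 in knockout males, and gave 1 for genotype in the mean. Fitting only the groups compared gave 0 in knockout males; for comparisons that use all 8 groups it is the reported fit. Averaging a gene's probe sets, or testing every probe set, gave 1 for genotype in the mean. Averaging kept a count of 2 for TAC in the mean with Per3 and Nr1d2, since averaged Npas2 fell below the filter. Leaving out each mouse gave 0 to 1 in wild-type females, 0 to 1 in knockout females, 0 to 2 in knockout males and 0 to 1 for genotype in the mean, and 2 throughout for TAC in the mean. For Arntl, averaged probe sets gave r of 0.678 with Clock and -0.312 with Nr1d2, and leaving out the 2 extreme mice gave -0.472 with Per1. Of the causes of these shifts, those not named here were not tested. Of 4965 alternative values of single genes, 28 passed the threshold where the reported value did not, 10 no longer passed, and 299 differed in sign with neither past it. With the replicate number as a block, 2 clock genes were called for TAC in the mean, 1 in knockout males and 0 in each other comparison, the reported counts. The numbers do not pair the mice: of 112 same-numbered pairs, 35 had deviations correlated over 0.1 (-0.61 to 0.58, median 0.01).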

Other observations

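Stress-responsive genes were read beside the clock genes, since Per1 itself is known to respond to such signals. Of 11 immediate early genes tested of 12 listed, 8 rose and none fell after TAC in the mean of the strata (limma), beside 23.5% higher and 17.8% lower among all genes tested. Egr2 rose by 1.51 ± 0.18 on the log2 scale (limma, adjusted p = 6.91e-08), Egr3 by 1.36 ± 0.18 (5.81e-07) and Ier3 by 0.55 ± 0.08 (3.59e-06). Of 8 glucocorticoid-responsive genes, 4 rose and 1 fell in the same contrast. The metallothionein genes Mt2 and Mt1 rose by 1.17 ± 0.14 and 0.47 ± 0.08 (limma, adjusted p = 8.96e-08 and 4.53e-05), and Cdkn1a, a cell cycle inhibitor, by 1.20 ± 0.20 (2.3e-05). Correlations with the phase index over 32 mice, of deviations from the group mean, are a description with no test. They were 0.689 for Cdkn1a and -0.659 for Klf9, the member that fell. For the other 6 glucocorticoid-responsive genes they lay between -0.363 and 0.191, and for the immediate early genes between -0.092 and 0.399.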
